A study of Mus musculus with 6 samples.

Results

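The sarcoplasmic reticulum is the calcium store of a heart muscle cell, and 10 genes of its release and uptake machinery are described here in heart cells with a mutant or a wild-type histone H3.3. They were chosen by name as Ryr2, Trdn, Asph, Jph2, Casq2, Casq1, Hrc, Atp2a2, Pln and Sln. All 10 have a row among the 15159 genes of the count table, and all 10 were among the 14758 genes with enough reads to be tested. None of the 10 passed edgeR's test between the groups at an adjusted p under 0.05, while 1.99% of all tested genes did (0.935% higher and 1.05% lower in H3K9M). At an unadjusted p under 0.05 there were 2 of the 10 in edgeR, against 16.4% of all tested genes. The nearest was Pln, the pump inhibitor phospholamban, whose level was 1.29-fold higher in H3K9M. Of 8 ratios between members, that of Pln to the pump gene Atp2a2 was higher and that of Casq2 to the channel gene Ryr2 lower in H3K9M without overlap (exact permutation p = 0.4 each, adjusted over the 8). Over all tested genes, 7.56% had a higher ratio to Atp2a2 and 12.1% a lower ratio to Ryr2 without overlap.

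In each heartbeat, calcium that enters through the surface membrane opens ryanodine receptors in the reticulum, and the released calcium starts contraction. Triadin, junctin and calsequestrin hold and sense calcium beside the channel inside the reticulum, and junctophilin keeps the reticulum close to the surface membrane. The SERCA pump then returns calcium to the store, and the small membrane proteins phospholamban and sarcolipin slow that pump.

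The cells were taken from mouse hearts (C57BL/6 x 129S4/SvJae) at embryonic day 18.5 and cultured for 4 days on PDMS, a silicone rubber, with a stiffness of 13 kPa. The 3 H3K9M libraries come from cells with an inducible transgene for H3.3 in which methionine replaces lysine 9, and the 3 H3WT libraries from cells with an inducible wild-type H3.3. Both groups received doxycycline at 2 µg/ml on days 0, 1 and 2, so both were induced to express a transgene. The comparison asks how the mutant transgene changes transcript levels relative to the wild-type one. The labels do not give the promoter of the transgene, the cells that express it or whether libraries came from separate embryos, and the p-values below count these libraries as replicates, whose spread may be technical. The titles of both libraries numbered 2 lack the word that marks the soft substrate in the other 4, although the culture protocol is the same for all 6.

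The libraries held 55550379 to 67994773 counts, and levels are given as CPM, read counts scaled to library size, after TMM scaling. Markers of several cell types were present. The summed level of 12 contractile genes of cardiomyocytes lay between 37916 and 41995 CPM in H3K9M and between 36860 and 44529 CPM in H3WT. For 8 fibroblast markers the sum was 11535 to 18316 CPM in H3K9M and 12845 to 19329 CPM in H3WT. For 8 endothelial markers it was 459 to 529 CPM in H3K9M and 500.1 to 619 CPM in H3WT. The sum of 7 macrophage markers was 191 to 247 CPM in H3K9M and 127 to 467 CPM in H3WT, and that of 6 smooth muscle markers 4982 to 5380 CPM in H3K9M and 5131 to 7025 CPM in H3WT. The sum of 6 epicardial markers was 44.0 to 48.9 CPM in H3K9M and 41.5 to 98.2 CPM in H3WT, and that of 6 ventricular markers 3575 to 3587 CPM in H3K9M and 3312 to 3817 CPM in H3WT. The 6 erythroid markers have no row under their names among the counted genes. A sum follows its most abundant genes, so the fold changes of the single markers are given too. Negative log2 fold changes were found for 6 of 8 fibroblast markers (median -0.56), 7 of 8 endothelial markers (median -0.55, 2 lower without overlap), 5 of 6 smooth muscle markers (median -0.22) and 7 of 7 macrophage markers (median -0.36). Of the 6 epicardial markers 4 were positive (median 0.97, 2 higher without overlap), and of the 12 contractile genes 8 were positive (median 0.0363, 1 lower without overlap). Over all tested genes, 11.3% were higher and 11.3% lower without overlap. Of the 6 ventricular markers, 3 had positive and 3 negative log2 fold changes (median -0.08). None of the genes in these lists passed in edgeR, and their part in the members' values was not tested. In such bulk samples, fewer cells of a type and less RNA per cell cannot be told apart.

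The 10 transcripts spanned a wide range of abundance. Per kilobase of annotated exon, Atp2a2 led with 595 ± 62.6 CPM per kb in H3K9M and 608 ± 53.5 CPM per kb in H3WT (SD, n = 3 each). Pln followed with 339.6 ± 18.2 CPM per kb in H3K9M and 264 ± 24.2 CPM per kb in H3WT, and Casq2 with 159 ± 25.0 CPM per kb in H3K9M and 167 ± 24.8 CPM per kb in H3WT. Below them came Jph2, Casq1, Hrc, Ryr2, Trdn, Asph and Sln, in that order in both groups. No 2 neighbours in this order overlapped in either group. Ryr2 stood at 18.4 ± 2.91 CPM per kb in H3K9M and 16.0 ± 2.05 CPM per kb in H3WT, and Sln at 0.602 ± 0.175 CPM per kb in H3K9M and 0.344 ± 0.371 CPM per kb in H3WT. The exon length joins all annotated transcripts of a gene, of which Asph has 20 and Ryr2 14, so a value per kilobase is lower than for a single shorter transcript.

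**Figure D1:**
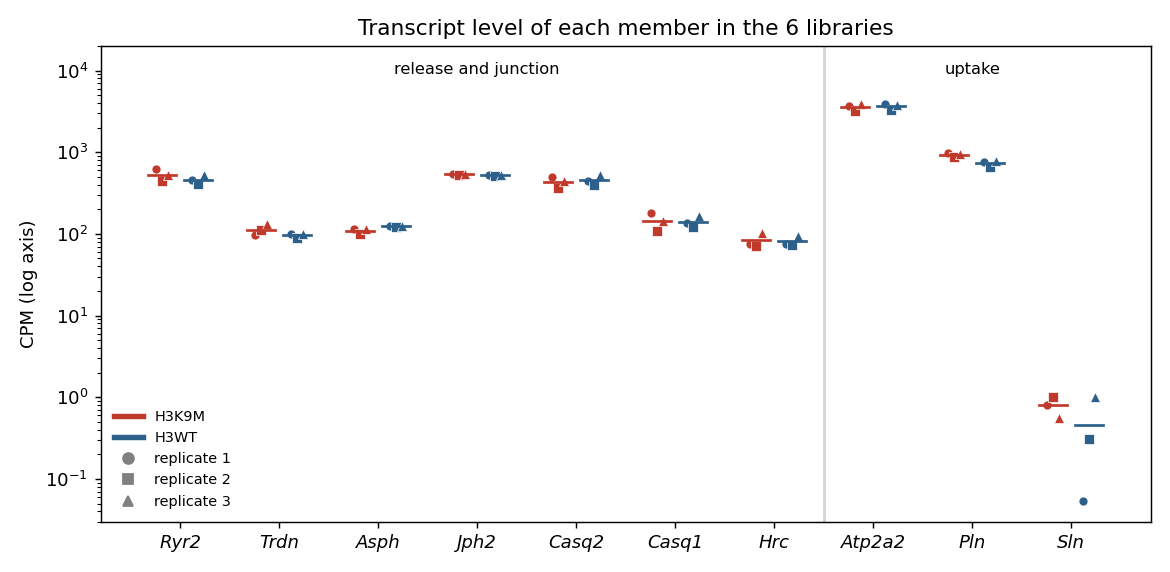
CPM (log axis) of each member in each library, with H3K9M to the left of H3WT, 1 symbol per replicate number and a bar at the group mean. Atp2a2 lies at 3197 CPM or above in all libraries and Sln at 1.02 CPM or below, while the groups lie close together for most members.

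The members lie on 9 chromosomes (GRCm38, GENCODE M21) and are all protein-coding genes. On the minus strand are Ryr2 (chromosome 13, 11553102 to 12106945), Asph (chromosome 4, 9448069 to 9669344), Jph2 (chromosome 2, 163336242 to 163397993), Casq1 (chromosome 1, 172209894 to 172219868) and Atp2a2 (chromosome 5, 122453513 to 122502225). On the plus strand are Trdn (chromosome 10, 33080554 to 33476709), Casq2 (chromosome 3, 102086415 to 102146514), Hrc (chromosome 7, 45335290 to 45338974), Pln (chromosome 10, 53337667 to 53345987) and Sln (chromosome 9, 53850164 to 53854560). Trdn and Pln share chromosome 10.

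Ryr2 encodes the release channel of the cardiac reticulum. It had 617, 450.1 and 525 CPM in H3K9M replicates 1 to 3, against 458, 405 and 523 CPM in H3WT replicates 1 to 3. The groups overlapped, with H3K9M replicate 1 as the highest library. The log2 fold change of H3K9M over H3WT was 0.20 ± 0.13 (SE), with a 95% interval from -0.11 to 0.51 and an edgeR adjusted p of 0.513.

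The luminal calcium buffer of the heart is calsequestrin 2. Its gene Casq2 had 503, 366 and 439 CPM in H3K9M, against 447, 394 and 529 CPM in H3WT. The groups overlapped, and the log2 fold change was -0.07 ± 0.14 with an edgeR adjusted p of 0.864. Casq1 encodes the calsequestrin best known from skeletal muscle. It had 180.5, 108 and 146 CPM in H3K9M, against 135, 119.9 and 166 CPM in H3WT. It varied most between libraries of a group among the abundant members, and its log2 fold change was 0.04 ± 0.18 (edgeR adjusted p = 0.938). Of 12 markers of fast skeletal muscle, Myh4, Myod1, Myog and Pvalb have no row under these names among the counted genes. The other 8 summed to 8.59 to 12.4 CPM in H3K9M and 6.61 to 13.97 CPM in H3WT. No 50-base word of the Casq1 transcripts occurs in a transcript of another gene on the same strand, Casq2 included. Of the Casq1 exon bases, 7.996% lie opposite exons of Gm17224, which has no row under that name among the counted genes.

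Within a library the counts of Casq2 and Ryr2 kept a nearly fixed ratio in each group. The ratio of Casq2 to Ryr2 counts was 0.815, 0.813 and 0.835 in H3K9M, against 0.976, 0.973 and 1.01 in H3WT. The groups did not overlap, and each kept within a narrow band although the levels of both genes varied between libraries of the same group. The mean was 0.821 ± 0.0120 in H3K9M and 0.987 ± 0.0216 in H3WT (SD, n = 3 each), a log2 difference of -0.27. A two-sided exact permutation test gave p = 0.1, the smallest p that 3 libraries against 3 allow, and 0.4 after Benjamini-Hochberg adjustment over the 8 ratios compared. Beside the lower Casq2 ratio, the ratio of Jph2 to Ryr2 (1.02 ± 0.144 in H3K9M and 1.14 ± 0.115 in H3WT), that of Trdn to Ryr2 (0.218 ± 0.0518 in H3K9M and 0.210 ± 0.0170 in H3WT) and that of Hrc to Casq2 (0.193 ± 0.0429 in H3K9M and 0.177 ± 0.00762 in H3WT) overlapped.

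The bases before the annotated starts of Ryr2 and Casq2 are shown because the ratio of these genes separated the groups. Each is 250 bases, 5′ to 3′ on the gene's strand, from RefSeq (GRCm38.p6), with letter matches to 5 motifs in capitals. The windows are chr13:12106946-12107195 for Ryr2 (minus strand) and chr3:102086165-102086414 for Casq2 (plus strand).
Ryr2: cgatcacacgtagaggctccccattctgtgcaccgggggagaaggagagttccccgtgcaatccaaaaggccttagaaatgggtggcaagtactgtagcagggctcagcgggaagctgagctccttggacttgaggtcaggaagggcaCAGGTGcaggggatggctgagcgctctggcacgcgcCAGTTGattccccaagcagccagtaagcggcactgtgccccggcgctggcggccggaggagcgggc
Casq2: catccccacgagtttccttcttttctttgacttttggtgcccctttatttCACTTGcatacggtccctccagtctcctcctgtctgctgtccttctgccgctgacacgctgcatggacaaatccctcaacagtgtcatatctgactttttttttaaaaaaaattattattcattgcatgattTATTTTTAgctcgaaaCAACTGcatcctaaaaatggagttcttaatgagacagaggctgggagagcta
Both strands were searched. The TATA box was searched as the letters TATAAA. The E-box was searched as the letters CANNTG. A binding motif of the GATA factors was searched as GATAAG. The muscle motif known as M-CAT was searched as CATTCC. The core of the MEF2 motif was searched as TAAAAATA. No 2 matches overlap in the windows shown. Both windows hold 2 E-box matches, a motif found in 66.2% of 32851 such windows. The Casq2 window also holds a match to the MEF2 core, on the opposite strand at position -68 from the start, which 2.45% of the windows have. These are matches of letters and not measured binding sites.

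Triadin, encoded by Trdn, anchors calsequestrin to the channel. It had 97.6, 111 and 130.3 CPM in H3K9M, against 99.5, 89.7 and 99.4 CPM in H3WT. H3K9M replicates 2 and 3 were above all of H3WT and replicate 1 was not. The log2 fold change was 0.23 ± 0.11 (95% interval -0.01 to 0.48, edgeR adjusted p = 0.333).

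The Asph gene encodes junctin, another anchor of the channel, together with the enzyme aspartyl beta-hydroxylase and the protein junctate, which gene counts do not separate. It had 113, 100.04 and 115 CPM in H3K9M, against 125, 122 and 124 CPM in H3WT. All 3 H3K9M libraries were below all of H3WT, where the 3 values lay close together. The log2 fold change was -0.17 ± 0.08 (95% interval -0.35 to -0.00227), with an edgeR adjusted p of 0.300. Of the Asph exon bases 14.3% lie opposite exons of Clvs1, a gene at no more than 0.715 CPM in any library.

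Jph2 encodes junctophilin 2, the tether between the reticulum and the surface membrane. It had 539.7, 523 and 544 CPM in H3K9M, against 521, 507 and 533 CPM in H3WT. It had the smallest standard error of the 10 members, with a log2 fold change of 0.04 ± 0.07 and a 95% interval from -0.12 to 0.20 (edgeR adjusted p = 0.827), a fold between 0.919 and 1.15. Hrc encodes the histidine-rich calcium binding protein of the lumen. It had 75.4, 70.4 and 103 CPM in H3K9M, against 75.6, 72.3 and 95.1 CPM in H3WT. Replicate 3 of each group was the highest, and the log2 fold change was 0.04 ± 0.16 (edgeR adjusted p = 0.942).

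On the uptake side, Atp2a2 encodes SERCA2, the pump that refills the store. It had 3709, 3197 and 3941 CPM in H3K9M, against 3941, 3329 and 3825 CPM in H3WT. The groups overlapped, and the log2 fold change was -0.03 ± 0.11 (edgeR adjusted p = 0.922). Its 95% interval, from -0.29 to 0.22, corresponds to a fold between 0.819 and 1.17. Of the 50-base words of its transcripts, 3.31% also occur in Gm30970, so a small part of its reads is uncertain. Atp2a2 alone made up 54.4% to 57.2% of the summed CPM of the 10 members in H3K9M and 57.4% to 60.0% in H3WT.

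Pln encodes phospholamban, which slows SERCA2 until it is phosphorylated. It had 984, 884 and 943 CPM in H3K9M, against 763, 652 and 771 CPM in H3WT. All 3 H3K9M libraries were above all of H3WT. The means were 937 ± 50.3 CPM in H3K9M and 729 ± 66.8 CPM in H3WT (SD, n = 3 each), and the log2 fold change was 0.36 ± 0.09 (95% interval 0.15 to 0.58). This missed the threshold in edgeR's quasi-likelihood test (adjusted p = 0.0974, unadjusted p = 0.00428). DESeq2 on the same counts called it higher (adjusted p = 0.00543), as did the authors' deposited table, with a log2 fold change of 0.36 and an adjusted p of 0.0311. Limma-voom did not (adjusted p = 0.0920). DESeq2 called 6.84% of all tested genes (3.2% higher), edgeR 1.99% (0.935% higher), and 4.1% (1.8% higher) were called in the authors' deposited table.

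The 250 bases before the RefSeq start of Pln, chr10:53337436-53337685 (GRCm38.p6, plus strand), are shown because Pln was the member nearest to the threshold.
Pln: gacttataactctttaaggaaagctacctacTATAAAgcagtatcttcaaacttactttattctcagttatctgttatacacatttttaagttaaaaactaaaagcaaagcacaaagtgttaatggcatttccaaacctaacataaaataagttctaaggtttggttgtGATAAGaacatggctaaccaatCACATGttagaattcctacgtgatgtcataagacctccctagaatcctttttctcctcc
In capitals are a TATAAA match at position -219 from the start, a GATAAG match at -81 and 1 E-box match at -59. Such a TATAAA match is present in 12.4% of the windows and GATAAG in 6.55%. Of the Pln exon bases, 59.6% lie opposite the exons of the gene model Gm47644 and 5.11% opposite those of Cep85l. The strand setting of the counting is not given in the sources used here, so reads from these genes and from Pln cannot be told apart there. Cep85l stood at 4.94 to 6.60 CPM in H3K9M and 6.92 to 7.21 CPM in H3WT. Gm47644 has no row under that name among the counted genes.

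**Figure D2:**
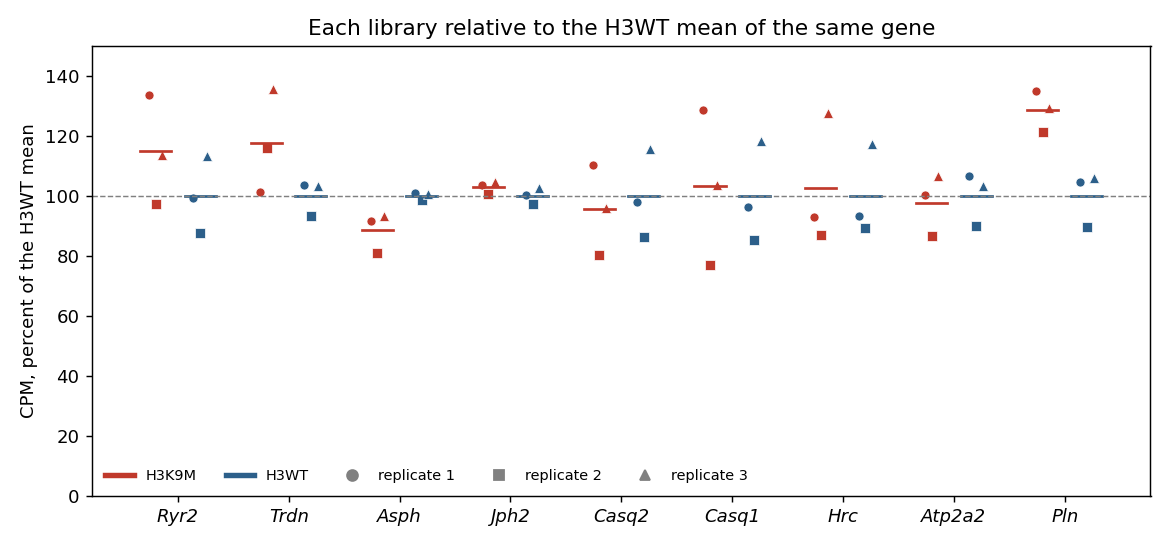
CPM of 9 members in each library as a percent of the H3WT mean of the same gene, with H3K9M to the left of H3WT, symbols for the replicate number and a bar at the group mean; Sln is left out for its low counts. The 3 H3K9M libraries of Pln lie at 121% to 135% and those of Asph at 81.0% to 93.2%, and in neither gene do the groups overlap.

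The ratio of Pln to Atp2a2 counts, the inhibitor set against its pump, is free of library scaling. It was 0.265, 0.277 and 0.239 in H3K9M, against 0.194, 0.196 and 0.202 in H3WT. All 3 H3K9M libraries were above all of H3WT, whose values lay within a narrow band. The mean was 0.260 ± 0.0192 in H3K9M and 0.197 ± 0.00413 in H3WT (SD, n = 3 each), a log2 difference of 0.40 or 1.32-fold. The exact permutation test gave the smallest p it allows, 0.1 (two-sided; 0.4 adjusted over the 8 ratios). The ratio of Atp2a2 to Ryr2 was 6.87 ± 0.773 in H3K9M and 8.05 ± 0.658 in H3WT, and here the groups overlapped (exact permutation p = 0.2, two-sided).

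Sarcolipin, encoded by Sln, is the pump inhibitor known from the atria of the mouse heart. It was near the limit of detection, with 47, 62 and 32 reads in H3K9M and 3, 17 and 68 reads in H3WT. These are 0.803, 1.02 and 0.558 CPM in H3K9M and 0.0535, 0.306 and 0.999 CPM in H3WT. The H3WT libraries spread from below to almost the top of H3K9M, so the 95% interval of the log2 fold change of 0.79 ± 0.83 runs from -1.10 to 2.68 (edgeR adjusted p = 0.697). Sln counts were at most 0.000319 of the Atp2a2 counts in any library. Of 8 atrial markers, Bmp10 has no row under that name among the counted genes. The other 7 summed to 644 to 2226 CPM in H3K9M and 567 to 945 CPM in H3WT. Among them Myl7, the atrial myosin light chain, was called higher (edgeR adjusted p = 0.0221). It had 103, 94.4 and 60.7 CPM in H3K9M, against 24.2, 34.3 and 38.7 CPM in H3WT. Of these 7 atrial markers, 4 had positive and 3 negative log2 fold changes, from -0.74 to 1.53. Without overlap, 1 was higher and 1 lower, against 11.3% of all tested genes in each direction. Their part in the Sln values was not tested.

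**Figure D3:**
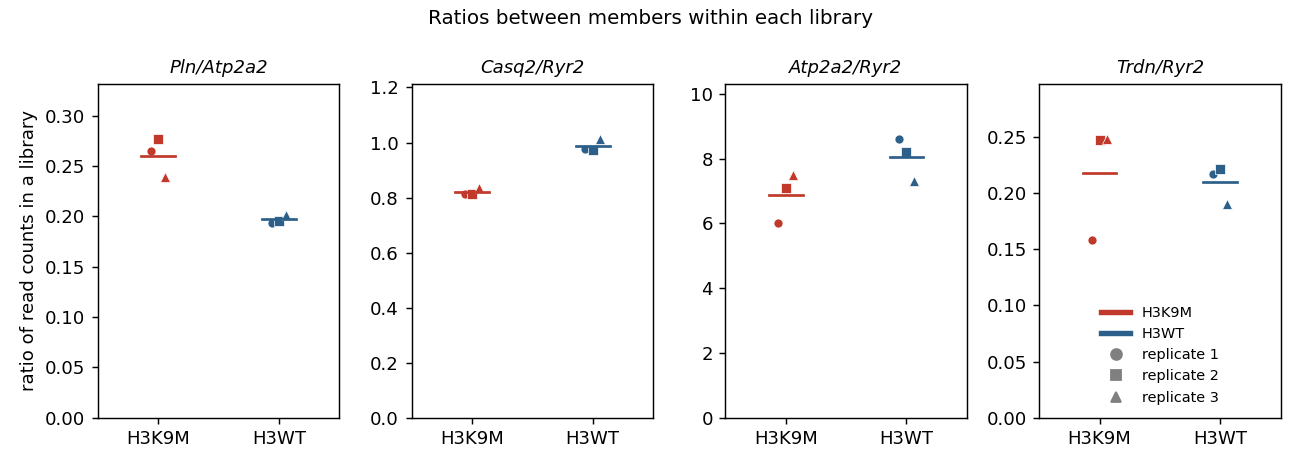
Ratio of read counts between pairs of members in each library, with H3K9M to the left of H3WT, symbols for the replicate number and a bar at the group mean. Pln/Atp2a2 is higher and Casq2/Ryr2 lower in all 3 H3K9M libraries than in any H3WT library, while Atp2a2/Ryr2 and Trdn/Ryr2 overlap.

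Over all tested genes, 138 were called higher and 155 lower in H3K9M, a share so small that 0 of 10 members does not set them apart. The 2 members at an unadjusted p under 0.05 were Pln (higher) and Asph (lower). Pln was also the 1 member higher without overlap and Asph the 1 lower without overlap, while 22.6% of all tested genes did not overlap, 11.3% in each direction. The median log2 fold change was 0.0428 over the 10 members and -0.00245 over all tested genes, with 7 members above and 3 below 0. By other tools, DESeq2 called 1 member, against 6.84% of all tested genes, and limma-voom 0, against 1.5%. At an unadjusted p under 0.05 limma-voom had 2 members, against 16.1% of all tested genes, and DESeq2 had 1, against 17.2%.

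**Figure D4:**
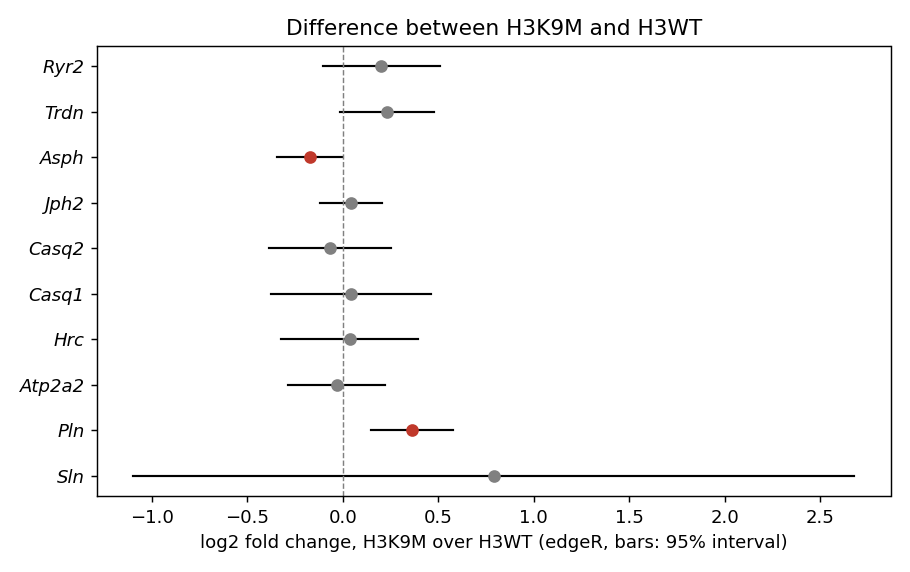
Log2 fold change of H3K9M over H3WT (edgeR) for the 10 members, with bars for the 95% interval; red points mark members whose groups do not overlap. The intervals of Pln and Asph leave out 0, and that of Sln runs from -1.10 to 2.68.

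The members were also scaled to the summed counts of the 12 contractile genes. Per 1000 counts of these genes, Pln had 23.6, 23.3 and 22.4 counts in H3K9M, against 19.7, 17.7 and 17.3 in H3WT. The H3K9M values were all above those of H3WT, with a spread of 0.590 (SD) around a mean of 23.1 in H3K9M and of 1.28 around 18.2 in H3WT. On this scale Ryr2 also did not overlap, with 14.8, 11.87 and 12.5 in H3K9M, against 11.82, 10.99 and 11.7 in H3WT, where the nearest libraries of the groups nearly touch. Atp2a2 did, at 88.8, 84.3 and 93.9 in H3K9M, against 101.7, 90.3 and 85.9 in H3WT. Asph had 2.71, 2.64 and 2.74 in H3K9M, against 3.21, 3.30 and 2.79 in H3WT, again without overlap. Over all tested genes, 7.88% were higher and 7.87% lower without overlap on this scale. The edgeR adjusted p with this scaling was 0.192 for Pln, 0.664 for Ryr2 and 0.557 for Asph.

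Most members also had the same lowest library within a group. In both groups replicate 2 was the lowest library for 8 of the 9 members other than Sln, the exception being Trdn. Over all tested genes, 10.5% had replicate 2 lowest in both groups. This look at replicate 2 was not planned, and the labels do not say that equal numbers pair libraries. Members whose levels vary together are not separate observations. The contractile sum was lowest in replicate 2 of both groups as well, at 37916 CPM in H3K9M and 36860 CPM in H3WT. Its part in these levels was not tested. Over the 6 libraries, 30 of the 36 pairs of members without Sln had a positive Pearson r of log2 CPM, with a median of 0.546. The highest was 0.955, between Casq2 and Casq1, and the lowest -0.576, between Asph and Pln. No such values over all tested genes are given here, so these r are not shown to be particular to the members. The genes of a library share its scaling and cell makeup, and the r are descriptions.

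Of 10525 genes compared by the same measure, those most like Pln over the 6 libraries were Pop7 (r = 0.996), Ficd (0.994) and Ppp1cc (0.994). Those most like Atp2a2 included Lynx1 (0.991) and Ubl3 (0.972). These were picked as the highest values out of all genes compared, over 6 points each.

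Around the members, 6 further lists of calcium handling genes were followed, with 61 of 66 genes tested. Of these, 0 were higher and 1 was lower in H3K9M at an edgeR adjusted p under 0.05, and 31 had positive and 30 negative fold changes. At an unadjusted p under 0.05 there were 10 in edgeR, 9 in DESeq2 and 10 in limma-voom, near the shares over all tested genes of 16.4%, 17.2% and 16.1% in these tools. The counts of single lists below stand beside these same shares. The 1 call among 61 genes stands beside 1.99% of all tested genes.

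The gene that fell was Atp2b4, which encodes PMCA4, a pump that expels calcium across the surface membrane. It had 20.4, 24.7 and 25.9 CPM in H3K9M, against 40.9, 37.6 and 32.8 CPM in H3WT. All H3K9M libraries were below all of H3WT, and the log2 fold change was -0.65 ± 0.12 (edgeR adjusted p = 0.0419; 0.000316 in the authors' deposited table). This edgeR call was lost without H3WT replicate 1 (adjusted p = 0.0910) or 2 (0.160) and without H3K9M replicate 1 (0.103), 2 (0.119) or 3 (0.0859), and also when scaled to the contractile genes (0.0716). The log2 fold change lay between -0.73 and -0.56 on leaving out 1 library and was -0.68 with that scaling. Of the other surface genes, Atp2b1, a related pump, stood at 113 ± 8.47 CPM in H3K9M and 123 ± 4.44 CPM in H3WT. Slc8a1, the sodium-calcium exchanger, stood at 592 ± 51.0 CPM in H3K9M and 553 ± 117 CPM in H3WT, and Cacna1c, the pore of the L-type calcium channel, at 221 ± 23.7 CPM in H3K9M and 208 ± 20.3 CPM in H3WT. The median of the 6 surface genes was 0.00414 on the log2 scale.

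Among 14 tested partners of the release channel none passed in edgeR (3 at an unadjusted p under 0.05, against 16.4% of all tested genes), in DESeq2 or in limma-voom, with a median log2 fold change of 0.00501. Sri, encoding the channel modulator sorcin, had 91.1, 94.6 and 87.4 CPM in H3K9M, against 77.8, 81.9 and 72.9 CPM in H3WT. The groups did not overlap, but its log2 fold change of 0.23 ± 0.07 had an edgeR adjusted p of 0.164. Fkbp1b encodes calstabin 2, which binds the cardiac channel, and stood at 2.79 ± 0.765 CPM in H3K9M and 4.68 ± 1.03 CPM in H3WT (log2 fold change -0.75 ± 0.27, edgeR adjusted p = 0.219). Its far more abundant relative Fkbp1a stood at 475 ± 36.3 CPM in H3K9M and 451 ± 51.2 CPM in H3WT, and the calmodulin gene Calm3 at 418 ± 16.0 CPM in H3K9M and 427 ± 18.8 CPM in H3WT. Ryr1, the skeletal channel, had too few counts to be tested.

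Among 8 tested regulators of the pump none passed in edgeR (1 at an unadjusted p under 0.05), in DESeq2 or in limma-voom, with a median of 0.0684. Ppp1r1a encodes inhibitor 1 of protein phosphatase 1, an enzyme that dephosphorylates phospholamban. It stood at 0.762 ± 0.158 CPM in H3K9M and 1.46 ± 0.169 CPM in H3WT, without overlap (log2 fold change -0.94 ± 0.36, edgeR adjusted p = 0.242). Ppp1cc, a catalytic subunit of that enzyme, stood at 145 ± 1.69 CPM in H3K9M and 135 ± 3.63 CPM in H3WT (0.11 ± 0.06, edgeR adjusted p = 0.463), and its relative Ppp1ca at 378 ± 5.55 CPM in H3K9M and 371 ± 12.2 CPM in H3WT. Srl, sarcalumenin of the reticulum lumen, stood at 562 ± 87.1 CPM in H3K9M and 491 ± 108 CPM in H3WT. Atp2a1, the pump of fast skeletal muscle, had too few counts to be tested. The small pump regulators Strit1 and Mrln have no row under these names among the counted genes.

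Of 11 genes of the lumen and of counter-ion channels none passed in edgeR (3 at an unadjusted p under 0.05, against 16.4% of all tested genes) or limma-voom, and 1 in DESeq2, against 6.84%, with a median of 0.0165. Tmem38b, the counter-ion channel TRIC-B, had 14.8, 15.7 and 17.7 CPM in H3K9M, against 26.8, 19.98 and 20.4 CPM in H3WT. The groups did not overlap, and its log2 fold change of -0.48 ± 0.14 had an adjusted p of 0.137 in edgeR and 0.0438 in DESeq2. The calcium binding proteins encoded by Rcn2 (0.20 ± 0.07, edgeR adjusted p = 0.214), Calu (0.17 ± 0.09, 0.403) and Calr (0.04 ± 0.09, 0.884) did not pass.

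Of 10 genes of inositol trisphosphate receptors and store-operated entry, 1 passed in DESeq2, against 6.84% of all tested genes, and none in edgeR (1 at an unadjusted p under 0.05) or limma-voom, with a median of 0.0634. It was Tmco1, a calcium leak channel of the reticulum, with 62.2, 63.9 and 63.8 CPM in H3K9M, against 55.0, 51.4 and 53.0 CPM in H3WT. The groups did not overlap, and the log2 fold change of 0.25 ± 0.07 had an adjusted p of 0.112 in edgeR and 0.0478 in DESeq2. Orai3, a pore of store-operated entry, stood at 14.8 ± 1.14 CPM in H3K9M and 18.3 ± 3.04 CPM in H3WT, Itpr1, an inositol trisphosphate receptor, at 149.8 ± 9.41 CPM in H3K9M and 161 ± 6.36 CPM in H3WT, and Saraf, an inhibitor of that entry, at 154 ± 5.67 CPM in H3K9M and 147 ± 1.74 CPM in H3WT.

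Of 12 genes of the junction with the T-tubule none passed in edgeR (1 at an unadjusted p under 0.05), DESeq2 or limma-voom, with a median of -0.0396. Fsd2, a protein of the junction, had 71.5, 60.5 and 74.1 CPM in H3K9M, against 80.3, 76.1 and 86.4 CPM in H3WT, without overlap (-0.24 ± 0.09, edgeR adjusted p = 0.259). Cmya5 stood at 159.7 ± 28.1 CPM in H3K9M and 169 ± 24.7 CPM in H3WT and the membrane repair gene Dysf at 216 ± 18.9 CPM in H3K9M and 217 ± 21.4 CPM in H3WT. Jph4, a junctophilin known from the nervous system, was at or below 0.558 CPM in all libraries.

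**Figure D5:**
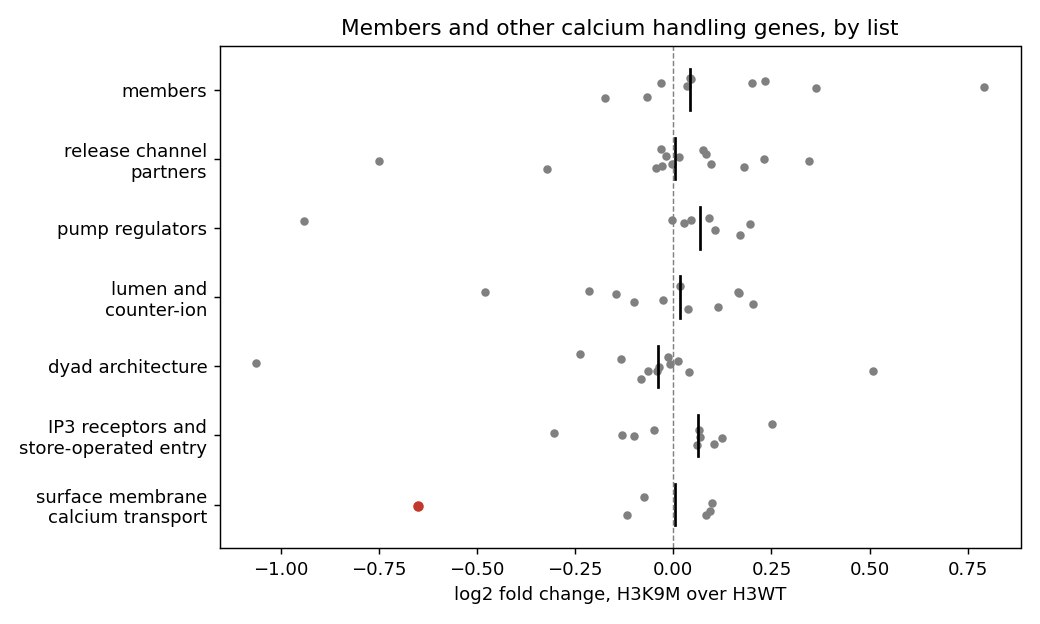
Log2 fold change of H3K9M over H3WT (edgeR) of each tested gene, by list, with a vertical bar at the list median and the 1 gene past an adjusted p of 0.05 in red. The list medians lie between -0.0396 and 0.0684, and the red point is Atp2b4 at -0.65.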

How the data were processed

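Per the labels' protocols, polyadenylated RNA was sequenced from 3 H3K9M and 3 H3WT cultures. Per the submitters' processing notes, HISAT2, featureCounts, DESeq2 and the build mm10 were used. The sources used here give neither tool versions nor the strand setting of the counting. Deposited by the authors were raw read counts per gene (15159 genes, smallest row total 19). The other deposited file is the authors' DESeq2 table of 14691 genes, with a mean normalised count (a signal), the log2 fold change and its error, p-values and the Wald statistic, a score that was not used.

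Here low genes were removed by filterByExpr (at least 10 counts, total of 15), and the counts were scaled by TMM and tested with edgeR 4.0.16 (R 4.3.3, quasi-likelihood F test), modelling group alone, with p-values adjusted by Benjamini-Hochberg over 14758 genes and called under 0.05. The standard error is the log2 fold change over the square root of F, and its median over genes was 0.133. The common dispersion corresponds to a coefficient of variation of 18.8%. Ratios were compared with an exact permutation test of 20 assignments. DESeq2 1.42.0, limma-voom (limma 3.58.1), other scalings and filters, and leaving out libraries were alternatives. The steps were tested on simulated counts with fold changes larger than those of the members, so that test does not show whether changes of their size can be called. Positions and exon lengths are from GENCODE M21 (GRCm38, also called mm10), in which 14562 of the gene names were found, and promoter windows from RefSeq, in which 6 of the 10 members have an entry.

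The members and gene lists were chosen with earlier results of these data known. Beside the members, the text names every list gene past the threshold, and from each list the 2 of smallest p and the 2 of highest mean CPM; markers are named past the threshold. The 3 genes most like Pln and most like Atp2a2 were to be named, and 1 of them is not reported here.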

Additional observations from a re-analysis of the deposited data

How the results depend on the processing

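Of 149 values of the 10 members under the alternatives, 139 kept their direction and side of the threshold, 9 changed sign without a call, and 1 gained a call. The gain was Pln in DESeq2 (log2 fold change 0.37). In its 14 other alternatives Pln kept its direction, with edgeR or limma-voom adjusted p-values from 0.0885 to 0.493. The sign changes came only when 1 library was left out, with log2 fold changes from -0.103 to 0.0435 for Atp2a2, -0.15 to 0.21 for Casq1, -0.184 to 0.0513 for Casq2 and -0.15 to 0.17 for Hrc. Sln had too few counts for the stricter filter of 5 CPM. Without H3WT replicate 3 the log2 fold change of Sln was 2.13, and without H3WT replicate 1 it was 0.27.

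DESeq2 called 472 genes higher and 538 lower, 1 member higher, and 1 list gene higher and 2 lower. Leaving out 1 library gave 30 to 149 genes higher, 30 to 223 lower and 0 to 1 list genes lower, with the fewest without H3WT replicate 2. At an adjusted p under 0.1 edgeR called 308 higher and 356 lower, and 1 member; under 0.01 it called 31 and 28, and 0 list genes lower. Scaling to contractile counts left 0 list genes lower. With only replicates 1 and 3, an alternative chosen after seeing the data, edgeR called 0 genes higher, 0 lower and 0 list genes, with 1378 genes at an unadjusted p under 0.05; fewer libraries entered that fit.

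With the replicate number as a block, 31 genes were higher and 27 lower, 0 list genes were lower, and the adjusted p was 0.166 for Pln and 0.154 for Atp2b4. Same-numbered libraries deviated from their group means with r of -0.157, 0.0346 and -0.0694. Only H3WT replicate 2 correlated best with the library of its own number in the other group. Deviations within a group of 3 depend on each other, so these r cannot decide whether the numbers pair libraries. The titles carry a further tag that both groups share for the libraries numbered 1 and 3 only, and its meaning is not given. Leaving out 1 of 3 libraries cannot move a ratio difference by 1 SD between libraries, and pairing by replicate number leaves it the same. Neither run could therefore show a ratio to be unstable by that measure. With CPM + 1 in place of counts, the 8 ratio differences moved by less than 1 SD, an SD that is large for the ratios with Sln. On leaving out 1 library, Pln/Atp2a2 ran from 0.35 to 0.46, Casq2/Ryr2 from -0.28 to -0.25, Atp2a2/Ryr2 from -0.30 to -0.14, Jph2/Ryr2 from -0.25 to -0.0459, Trdn/Ryr2 from -0.0803 to 0.24, Hrc/Casq2 from -0.0638 to 0.26, Sln/Atp2a2 from 0.46 to 2.60 and Sln/Pln from 0.0775 to 2.18. With CPM + 1 in place of counts, Sln/Pln was -0.0163. Depth limits Sln most, with as few as 3 reads in a library.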

Other observations

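The mean normalised counts in the authors' deposited table were a median of 0.252 times the mean raw counts over 14412 shared genes, and 0.257 times for Atp2a2. The reason was not tested. In the authors' deposited table the log2 fold changes of the members ran from -0.12 (Asph) to 1.04 (Sln), and Pln alone of the 10 had an adjusted p under 0.05.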
